A study of Mus musculus with 6 samples.

Results

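In M-MDSCs from MS-275-treated tumor-bearing mice, 1010 chromatin sites lay in intergenic DNA up to 50 kb from a protein-coding gene and were gained over vehicle without being called for CXD101. These distal gained peaks were chosen from the deposited peak lists. A peak belonged to the set when it was called for MS-275 over vehicle, overlapped no peak called for CXD101 over vehicle and none called for MS-275 over CXD101, and overlapped no window of 5 kb upstream of a transcription start site (TSS). Its summit, the base of highest signal, also had to lie in no annotated gene and 50 kb or less from the nearest protein-coding TSS. The 1010 peaks were 11.9% of the 8480 MS-275 gained peaks and 15% of the 6729 that overlapped no CXD101 gained or MS-275 over CXD101 peak. All 6 deposited lists together held 11800 peaks. Because the rule itself used these contrasts, the fold enrichments, p-values and tag counts of the set are given as a description, without a test. The rule also leaves out every site at which MS-275 was called above CXD101, so no difference between the inhibitors was called at any of these sites.

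The cells were M-MDSCs, monocytic myeloid-derived suppressor cells, isolated by FACS from tumors as CD11b+ Ly-6C high Ly-6G- cells. The tumors were grown in the liver of wild-type female C57BL/6J mice aged 6 to 8 weeks from Hepa 1-6, a mouse hepatoma line, and the mice received vehicle, MS-275 or CXD101 by daily intraperitoneal injection, with both inhibitors at the same dose. MS-275 and CXD101 both inhibit HDAC1, HDAC2 and HDAC3. There were 6 ATAC-seq libraries, 2 in each of 3 groups, and the libraries of a group had been pooled before peaks were called. No value per library was therefore analysed here, no spread between replicates could be given, and each −log10 p-value compares the pooled libraries and not the conditions.

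Histone deacetylases remove acetyl groups from histone tails, and acetylated histones mark active promoters and enhancers. Enhancers are stretches of DNA bound by transcription factors that raise the transcription of a gene from a distance, often from intergenic DNA. ATAC-seq reads open chromatin because a transposase inserts sequencing adapters where DNA is not covered by nucleosomes. In myeloid cells many enhancers are bound by PU.1 together with C/EBP, RUNX, IRF or AP-1 factors. A distal peak does not show which gene it acts on, and the nearest gene is only a name for its position.

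The 5 peaks with the highest −log10 p-value are shown by their sequence, 100 bases on either side of the summit on the plus strand of mm10. Capitals mark matches to any of the 16 motifs that were searched and are spelled out with the motif results.
Pik3ap1, chr19:41417940-41418140: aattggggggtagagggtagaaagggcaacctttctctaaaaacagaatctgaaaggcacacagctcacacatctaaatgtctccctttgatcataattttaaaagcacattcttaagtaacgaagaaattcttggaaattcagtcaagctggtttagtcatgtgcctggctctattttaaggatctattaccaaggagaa
Gm8332, chr12:88256178-88256378: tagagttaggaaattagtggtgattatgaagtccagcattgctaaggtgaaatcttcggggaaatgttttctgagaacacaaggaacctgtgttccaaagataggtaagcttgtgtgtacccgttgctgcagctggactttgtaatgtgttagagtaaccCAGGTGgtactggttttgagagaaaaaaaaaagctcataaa
Ppp1r16b, chr2:158651441-158651641: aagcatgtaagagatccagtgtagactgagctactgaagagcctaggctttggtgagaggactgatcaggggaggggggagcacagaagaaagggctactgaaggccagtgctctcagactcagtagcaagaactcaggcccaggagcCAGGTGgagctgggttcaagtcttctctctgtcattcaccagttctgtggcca
Serpina3f, chr12:104224846-104225046: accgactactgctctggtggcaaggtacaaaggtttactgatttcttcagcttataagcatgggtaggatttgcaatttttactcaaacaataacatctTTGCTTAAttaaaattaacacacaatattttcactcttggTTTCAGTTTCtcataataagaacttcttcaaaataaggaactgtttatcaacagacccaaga
Dnaja2, chr8:85593585-85593785: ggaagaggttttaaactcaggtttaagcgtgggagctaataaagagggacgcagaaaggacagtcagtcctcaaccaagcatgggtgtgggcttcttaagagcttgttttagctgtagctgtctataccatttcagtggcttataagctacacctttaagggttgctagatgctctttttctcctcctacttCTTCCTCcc
The strongest of them lay 32.9 kb upstream of Pik3ap1, which encodes an adaptor that couples immune receptors to PI3K. At its summit 115 MS-275 tags, scaled to the vehicle depth, stood over a vehicle level of 24.0 tags, a fold enrichment of 4.66 with a −log10 p-value of 40.7. No motif match lay in its window. The Gm8332 peak, 6.18 kb upstream of a predicted gene, had 151 tags over 40.6, and 56.7% of its window was repeat-masked sequence. Both the Gm8332 and the Ppp1r16b windows held an E2-box. Ppp1r16b, which encodes a regulatory subunit of protein phosphatase 1, was 13.9 kb away, with 131 tags over 36.2. The peak 10.3 kb downstream of the start of Serpina3f, a serine protease inhibitor gene, had fewer tags, 78.7 over 13.8, and a higher fold enrichment of 5.38, and it carried C/EBP and IRF matches. The Dnaja2 peak lay 38.3 kb upstream of this co-chaperone gene with 88.3 tags over 18 and a PU.1 match.

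At most of the sites the vehicle control level already stood above the genome background. The median fold enrichment was 3.01 (quartiles 2.45 and 3.64, range 1.48 to 6.76), and the median tag counts were 49.0 for MS-275 and 14.4 for vehicle. The vehicle level was at least 2 times the genome background of 5.84 tags at 661 of the 1010 summits (65.4%), and 32 summits lay at that background. Since MACS2 takes the highest of several local averages as the control level, the first of these shares is an upper estimate. A fold enrichment of 4 or more was reached by 138 peaks, 74 were under 2, and 43 had at least 100 MS-275 tags. The highest fold enrichment, 6.76, belonged to a peak 31.6 kb upstream of Fzd10, a Wnt receptor gene, with 46.3 tags over 6.0. The peaks were narrow, with a median width of 243.5 bp.

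**Figure D1:**
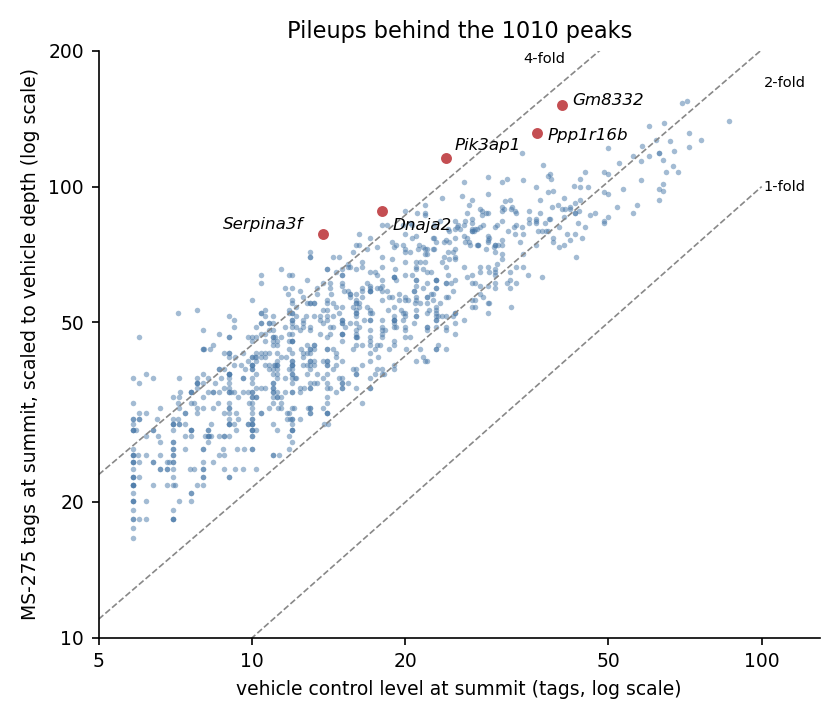
MS-275 tags at each summit, scaled to the vehicle depth, against the vehicle control level, both in tags on log axes. Each point is 1 of the 1010 peaks, dashed lines mark fold enrichments of 1, 2 and 4 after the pseudocount of 1, and red points are the 5 peaks with the highest −log10 p-value. All points lie above the line of 1, and 74 lie under the line of 2.

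The other 15 of the 20 strongest peaks had fold enrichments from 3.45 to 6.55 and lay near genes of varied roles. Il18rap, the accessory chain of the interleukin-18 receptor, had a peak 13.4 kb upstream with 94.4 tags over 23.6. S100a11, a calcium-binding S100 gene, had one 7.38 kb upstream with 69.9 tags over 13, and March6, a ubiquitin ligase of the endoplasmic reticulum, had the same fold enrichment of 5.07 at 11.2 kb upstream. Pde7a, a cAMP phosphodiesterase gene, had 119 tags over 33.8, and Foxn2, a forkhead factor gene, 71.7 over 13. Further peaks lay near genes better known from other tissues: Epcam, an epithelial adhesion gene (5.37-fold), Dnah11, an axonemal dynein gene (6.55-fold), and Ctcfl, a paralog of CTCF known from testis (4.63-fold). Of the Epcam window, 90.0% was repeat-masked sequence. The vehicle level at the Dnah11 summit was 7.16 tags, near the genome background of 5.84. Others were near Gm11084, Gm12888, Gprin3, Slc22a16, Tapt1 and Tespa1. Of the 20 peaks, 16 lay upstream of the nearest TSS, and 11 carried no match to any motif.

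The peaks fell near 631 protein-coding genes, 2.88% of the 21911 in the annotation. They formed 872 intervals, since 121 intervals held 2 or more of the summits and 1 held 6. A single interval was found for 465 of the genes, 2 for 118, and 3 or more for 48 (0.219% of coding genes), of which 7 had 5 or more. Within 5 kb of 394 intervals (45.2%) lay another MS-275 gained interval. When intervals up to 10 kb apart were joined, 358 of the 872 (41.1%) fell into 150 clusters of 2 or more, and 12 clusters held 4 or more. In 10 clusters the summits were nearest to different genes. Neither share was computed for other groups of peaks, so clustering is not shown to be particular to this set.

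The genes with most intervals were Zfp217 (8 intervals), Cxcr4 (7), and Cracr2a, Rybp, Parp8 and Tmsb4x (6 each), followed by Vps13d (5) and by Egfl7, 2010111I01Rik, Slc7a10, Ifngr1 and Timm8a2 (4 each), of which the first 3 had the higher summed −log10 p-values and are plotted. Zfp217, a zinc finger gene of a CoREST corepressor complex, had 11 summits 5.49 to 26.4 kb upstream of its start, all in 1 cluster of 21.4 kb. Their fold enrichments ran from 1.79 to 4.38. The summit with the highest fold, 22.5 kb upstream, had 51.6 tags, and the one with most tags, 16.1 kb upstream, had 114 tags at a fold enrichment of 1.94. The highest fold and the highest tag count were thus at different summits, but another Zfp217 summit had a fold of 3.46 with 71.7 tags. Peaks were kept by a cutoff on the same tags and vehicle level, so summits with few tags passed only at a higher fold. No relation between fold and tags is therefore concluded, here or at the genes below. Cxcr4, the receptor for the chemokine CXCL12, had 8 summits on both sides, 3 groups downstream of its start at 15.3, 21.2 to 22.0 and 42.8 to 43.2 kb and 1 upstream at 22.6 to 22.8 kb. The fold enrichment was 4.29 at 15.3 kb and 4.22 at 42.8 kb, and between 1.83 and 2.49 at the 5 summits with 61.2 to 119 tags. The window of the summit at 42.8 kb held a long stretch of GT and GA repeats. Cracr2a, a calcium channel regulator gene, had 8 summits within 9.34 kb, 31.1 to 40.1 kb upstream, with folds of 2.41 to 4.82. Parp8, a gene of the ADP-ribosyltransferase family, had 7 summits from 6.45 to 27.3 kb upstream. Rybp, a Polycomb component, had 5 summits in a cluster of 2.24 kb, 17.4 to 19.5 kb downstream of 1 of its starts, and 2 about 46.4 to 46.8 kb upstream of another. At Tmsb4x, which encodes the actin-binding thymosin beta 4, 5 of 7 summits stood in a cluster of 1.55 kb, 16.9 to 18.2 kb upstream. Egfl7, a gene for a secreted endothelial protein, had 5 summits within 2.42 kb, 27.5 to 29.8 kb upstream, with 55.1 to 113 tags.

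**Figure D2:**
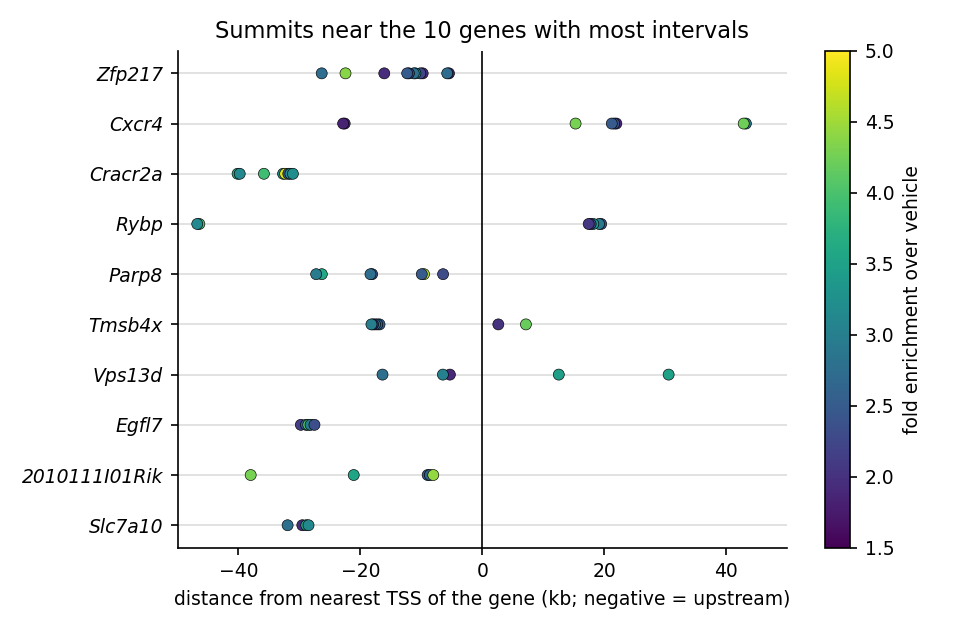
Position of each summit near 10 genes with 4 or more intervals, as distance from the nearest TSS of the gene in kb, upstream negative. Colors give the fold enrichment over vehicle. Zfp217, Cracr2a and Parp8 summits lie upstream in short stretches, and Cxcr4, Rybp, Tmsb4x and Vps13d have summits on both sides.

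A cluster of 5 intervals on chromosome 7, 6.33 kb long, was split between the names Cebpa and Slc7a10 by the nearest-start rule. Cebpa encodes C/EBPα, a transcription factor of granulocyte and monocyte differentiation, and Slc7a10 an amino acid transporter. The summits stood 32.6, 32.9, 35.1, 37.6, 38.2 and 38.6 kb downstream of the Cebpa start. The summit at 38.2 kb had the highest fold enrichment, 3.59, with 95.3 tags over 25.8, and the summit at 37.6 kb had 117 tags over 60 in vehicle, which is 1.94-fold. All 6 were gained with MS-275, as the rule requires. This cluster was singled out after its values had been seen. Other clusters with more than 1 nearest gene lay at Serpinb1a and Wrnip1 (5 intervals and 9 summits within 7.89 kb) and at Pck1 and Zbp1 (4 intervals).

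Genes with a distal peak had a gained promoter peak more frequently than coding genes in general, although most of them had none. Of the 631 nearest genes, 120 (19%, 95% Wilson interval 16.1 to 22.3) had an MS-275 gained peak within 5 kb upstream of a TSS, against 5.93% of all coding genes and 6.36% of those that hold any eligible intergenic DNA. Among the 48 genes with 3 or more intervals the share was 33.3% (16 of 48, interval 21.7 to 47.5), and Zfp217, Cxcr4, Cracr2a, Parp8, Vps13d and Egfl7 were among them. Lost promoter peaks were found at 3 of the 631 genes (0.475%), against 0.529% of coding genes. Both kinds of peak come from the same contrast, so this is a description of these pooled libraries. The intervals cover counting error only here and throughout. None of the 1010 peaks overlapped a peak lost with MS-275, a peak lost with CXD101 or a peak called for CXD101 over MS-275. The rule left almost no room for such overlaps. It keeps sites higher with MS-275 than with vehicle and drops those called for CXD101 over vehicle or for MS-275 over CXD101. No conclusion is drawn from these counts.

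Among cytokines, growth factors and their receptors, 8 of 48 genes (16.7%) had a peak, against 2.88% of all coding genes. The 19 peaks made 13.6 per Mb (95% Poisson interval 8.19 to 21.2) of the intergenic DNA next to these genes, against 2.63 per Mb (2.47 to 2.8) for the whole territory. Summits of 1 interval and neighboring intervals are not independent, so such ranges are too narrow. The gene lists were chosen with earlier results of these data known. Their densities are therefore a description, were not tested, and were not computed for other groups of peaks. Il27, a cytokine subunit of activated myeloid cells, had a peak 12.1 kb upstream with 59.5 tags over 14.2. Tnfrsf1b, a TNF receptor gene, had 3 summits, the strongest with 66.5 tags over 18. Ifngr1, the ligand-binding chain of the interferon-gamma receptor, had 5 summits with folds from 1.86 to 3.98, 4 of them 7.83 to 29.3 kb upstream and 1 at 7.38 kb downstream. Il12a, a subunit of interleukin-12, had 3 summits 11 to 43.8 kb upstream (2.48 to 3.95-fold), and Il12b, the other subunit, had 1 with a fold enrichment of 1.68. The growth factor genes were Csf1 (2 peaks, up to 3.16-fold) and Vegfa (2.65 to 3.15-fold at 3 summits), and Csf2ra, the receptor chain for GM-CSF, had 1 peak at 16.7 kb upstream (2.84-fold).

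The chemokine list had 4 of 38 genes with a peak (10.5%, against 2.88% of all coding genes). It had 11.4 peaks per Mb (5.87 to 19.9), against 2.63 over the whole territory. Cxcr4 held 8 of its 12 peaks. Ccl11, which attracts eosinophils, had 1 peak 5.68 kb downstream with 42.8 tags over 9.0, and Ccr7, the receptor that guides cells to lymph nodes, had 2. Ccr2, the receptor that brings monocytes to sites of inflammation and the receptor the study follows, had a single peak 34.4 kb upstream with 28 tags over 9.0. This was 2.90-fold, and its −log10 p-value of 6.52 was below the median of the 1010 peaks, 10.5. It had no gained promoter peak. Nedd4, the ubiquitin ligase gene of the same study, had a gained promoter peak and 2 distal peaks, 22.1 and 22.3 kb upstream. Their tag counts were close, 83.9 and 86.6, whereas their vehicle levels were 26.2 and 46.0, so the fold enrichments were 3.12 and 1.86. Neither these peaks nor the Ccr2 peak were in a CXD101 gained list, as the rule requires. Trim6, Trim32, Hdac1, Hdac2 and Hdac3 had no peak in the set. Hdac2 had 91.3 kb of eligible DNA, Trim6 had 5.93 kb and Hdac1 had 0.748 kb, whereas Trim32 and Hdac3 had none. The windows at Nedd4 and Ccr2, with motif matches in capitals, were as follows.
Nedd4, chr9:72640193-72640393: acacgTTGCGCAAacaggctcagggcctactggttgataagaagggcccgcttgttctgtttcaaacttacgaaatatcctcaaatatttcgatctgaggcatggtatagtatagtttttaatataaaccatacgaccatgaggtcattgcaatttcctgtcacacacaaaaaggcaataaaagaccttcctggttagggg
Nedd4, chr9:72639928-72640128: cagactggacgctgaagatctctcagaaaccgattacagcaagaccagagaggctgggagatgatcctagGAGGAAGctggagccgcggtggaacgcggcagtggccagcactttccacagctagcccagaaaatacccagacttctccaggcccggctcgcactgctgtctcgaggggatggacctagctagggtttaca
Ccr2, chr9:124067496-124067696: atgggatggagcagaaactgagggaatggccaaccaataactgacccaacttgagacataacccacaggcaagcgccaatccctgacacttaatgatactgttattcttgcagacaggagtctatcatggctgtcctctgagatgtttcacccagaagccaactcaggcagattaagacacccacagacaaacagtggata
The first Nedd4 window held a C/EBP match and the second, with the lower fold, a PU.1 match and 9 CpG sites. The Ccr2 window held none of the 16 motifs.

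MDSC suppressive effector genes had 4 of 27 members with a peak (14.8%, against 2.88% of all coding genes). They had 12.8 peaks per Mb (5.88 to 24.4), against 2.63 over the whole territory. S100a9, an alarmin that is abundant in myeloid cells, had 3 summits downstream of its start, at 13.1 kb (3.33-fold, 35.0 tags) and at 3.18 and 3.67 kb (1.86 and 2.02-fold, 55.1 and 57.7 tags). Ptgs2, the cyclooxygenase-2 gene, had 2 peaks, the stronger 31.6 kb upstream (4.39-fold), and Stat3, a signal transducer of MDSC expansion, had 1 (2.04-fold). Vegfa was the remaining gene and is shared with the cytokine list. Cell cycle arrest and apoptosis genes had 7 of 42 with a peak (16.7%) and 14.3 per Mb (7.37 to 24.9), against the same 2.88% and 2.63 per Mb. Btg1, an antiproliferative gene, had 3 peaks, the strongest with 63.8 tags over 11.8 (5.06-fold). Pmaip1, which encodes the BH3-only protein Noxa, had 82.2 tags over 22.8 at the stronger of its 2 peaks, 17.5 kb away, and the growth arrest gene Gadd45g had 74.3 over 19.2 at 7.04 kb upstream.

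Myeloid transcription factor genes had 6.71 peaks per Mb (3.46 to 11.7), against 2.63 over the whole territory. Of 50 such genes, 6 had a peak (12%, against 2.88% of all coding genes). Besides Cebpa these were Klf13 (3 peaks, up to 5.22-fold), Zeb2 (3.06-fold, with a PU.1 match), Cebpe (3 summits, 2.01 to 2.91-fold), Etv6 (2 peaks, up to 3.29-fold) and Id2 (3.85-fold). Interferon regulators and stimulated genes had 3 of 38 with a peak: Gbp2, a guanylate-binding protein gene, with 1, and the neighboring antiviral genes Ifitm1 and Ifitm3, which shared the interval with 6 summits. That interval, 1.68 kb long and between the 2 genes, had 28.9 to 102 tags at its summits, and the summit with 102 tags held an IRF match. Its 15.0 peaks per Mb (6.04 to 30.9) rest on this 1 interval for 6 of 7 peaks. Complement and tissue macrophage genes had 4 of 30 (Lpl, Hmox1, Spp1 and Vsig4), the Nedd4 and Trim ubiquitin ligases 3 of 46 (Nedd4, Trim13 and Trim8), integrins and adhesion 2 of 25 (Itgb2 among them), lysosome and autophagy genes 2 of 37 (Atp6v0d2 and Psap), and lectin, Fc, Trem and scavenger receptors 2 of 35 (Fcgr2b and Marco). AP-1 factors had 1 of 13 (Jdp2), pattern recognition and inflammasome genes 1 of 39 (2.56%, Nfkbiz) and synaptic genes 1 of 49 (2.04%, Dlg2). The AP-1, pattern recognition and synaptic shares rest on 1 gene each. The Wilson intervals of the last 2, 0.454 to 13.2% and 0.361 to 10.7%, include the 2.88% of all coding genes. So do those of the interferon, ubiquitin ligase, integrin, lysosome, lectin and AP-1 lists. The intervals of the myeloid transcription factor (5.62 to 23.8%) and complement lists (5.31 to 29.7%) lie above it.

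Antigen processing and MHC genes had 0 of 27 with a peak, but only 0.239 Mb of eligible DNA, in which a count of 0 has an upper bound of 15.4 per Mb. HDAC complex and acetylation genes had 0 of 44 in 0.792 Mb, with an upper bound of 4.66 per Mb, above the 2.63 per Mb of the whole territory. The territory counts chromosome Y, which female mice lack, and without it the overall density was 2.71 per Mb (2.55 to 2.88). Neither zero was distinguishable from the overall density at this depth. Over all 16 pathway lists together, 47 of 581 genes (8.09%, 6.14 to 10.6) had a peak, against 2.88% of all coding genes. The 90 peaks near them made 7.28 per Mb (5.85 to 8.95). These were 74 distinct intervals, or 5.99 per Mb (4.70 to 7.51), against 2.27 per Mb over the whole territory. The median fold enrichment of these 90 peaks was 3.05, beside 3.01 for the set.

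Markers of the sorted cell type were compared with those of other cells. Monocyte markers had 4 of 14 with a peak (28.6%, against 2.88% of all coding genes), among them Ly6c2, which encodes Ly-6C (3.87-fold at 5.54 kb upstream), Ccr2 and Plac8. Macrophage markers had 2 of 15 (Marco and Vsig4), neutrophil markers 1 of 15 (S100a9) and dendritic cell markers 1 of 11 (Ccr7). The densities were 14.2 per Mb (4.62 to 33.2) for monocyte, 6.94 (0.840 to 25.1) for macrophage, 12.6 (2.60 to 36.8) for neutrophil and 9.63 (1.17 to 34.8) for dendritic cell markers, and these intervals overlapped. No T cell (0 of 15), B cell (0 of 11), NK cell (0 of 11), hepatocyte (0 of 20), endothelial (0 of 12) or erythroid (0 of 12) marker was the nearest gene of a peak. Each of these zeros comes from 0.134 to 0.350 Mb of DNA, in which the overall density would give fewer than 1 peak. T cell receptor genes are not of the protein-coding type in this annotation, and 5 peaks in 2 intervals, assigned to Dad1, had a T cell receptor constant gene as the nearest start of any type, 6.94 to 13 kb away, with folds of 2.30 to 2.97.

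**Figure D3:**
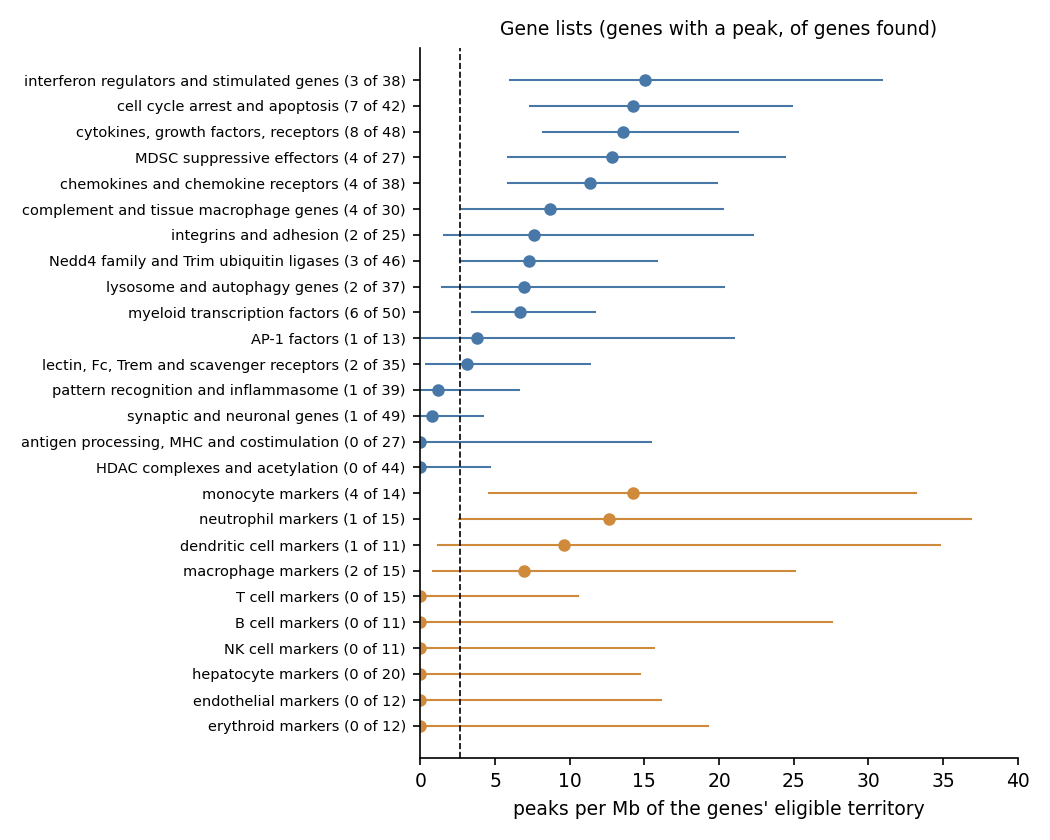
Peaks per Mb of the eligible DNA next to the genes of each list, with exact 95% Poisson intervals, pathway lists in blue and cell type markers in orange. Numbers in brackets are genes with a peak of genes found, and the dashed line is the density over the whole territory, 2.63 per Mb. The lists were chosen with earlier results of these data known, so their place against the line is a description and was not tested. By summits, 8 of the pathway lists lie above the line over their whole interval and 2 are at 0. By distinct intervals 5 do, and the interferon, complement and ubiquitin ligase lists do not.

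The rule left out the 5 kb upstream of every TSS and all DNA inside genes, so densities were taken over the remaining, eligible DNA, of which only 9.95 Mb lay within 5 kb of a coding TSS and 70.8 Mb at 5 to 10 kb. Per Mb of eligible DNA the density was 2.41 (1.55 to 3.59) at 0 to 5 kb, 3.05 (2.66 to 3.49) at 5 to 10 kb, 2.65 (2.35 to 2.97) at 10 to 20 kb and 2.98 (2.62 to 3.39) at 20 to 30 kb. It was 2.07 (1.73 to 2.46) at 30 to 40 kb, an interval that does not overlap that at 20 to 30 kb, and 2.2 (1.81 to 2.65) at 40 to 50 kb. Outside the set, MS-275-only intergenic peaks had 1.95 per Mb (1.75 to 2.17) at 50 to 100 kb and 0.606 (0.550 to 0.666) farther away. The intervals on either side of 50 kb overlapped, and the lowest of these densities lay beyond 100 kb. Just inside the limit were peaks near Zbtb18 (49.4 kb, 4.97-fold), Lrrk1 (49.5 kb, 3.17-fold) and Saraf (49.6 kb, 2.04-fold). Just outside were peaks near Tfap2a (50.3 kb, 2.75-fold), Zfp804a (50.4 kb, 3.78-fold) and Lta4h (50.6 kb, 2.87-fold). The lowest −log10 q-value in the set was 1.31, shared by peaks near 6030408B16Rik, Bcas1 and Zfp217, with fold enrichments of 2.2, 1.66 and 1.79. In all, 631 peaks (62.5%, 59.4 to 65.4) lay upstream of the nearest TSS, and upstream DNA made up 61.7% of the territory, so that the density was 2.66 per Mb (2.46 to 2.88) upstream and 2.58 (2.33 to 2.85) downstream. The nearest TSS of any gene type was a coding one for 606 peaks (60%), a processed pseudogene for 144 and a lincRNA for 105.

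**Figure D4:**
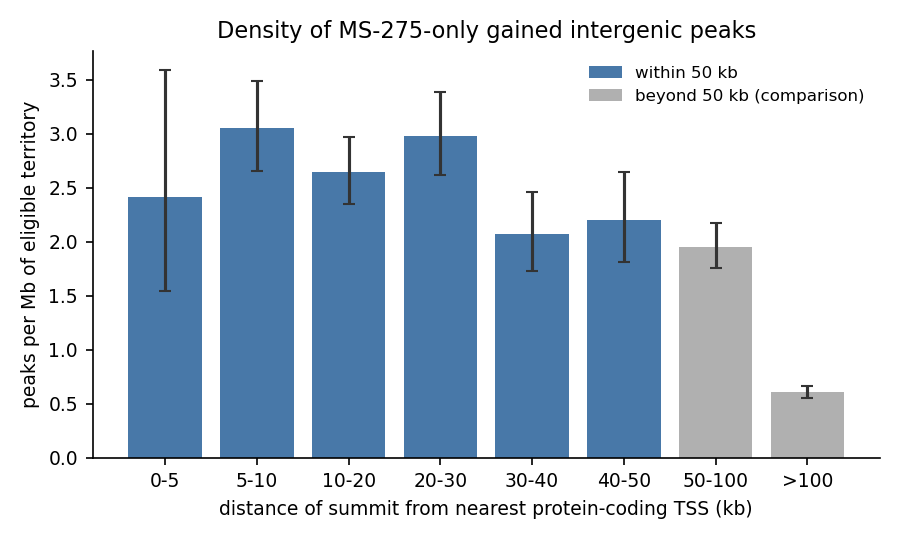
MS-275-only gained intergenic peaks per Mb of eligible DNA, by distance from the nearest protein-coding TSS in kb. Bars are densities with exact 95% Poisson intervals, blue for the 1010 peaks within 50 kb and gray for those beyond. The density is 1.95 at 50 to 100 kb and 0.606 beyond 100 kb.

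Sequence was not used to choose the peaks. In the window of 100 bases on either side of the summit the median G+C content was 48.3% (quartiles 43.3 and 52.7), against 42.8% in 1909349 tiles of the same length from the same territory. It was 46.3% in the 776 peaks beyond 50 kb, 48.3% in the 2460 intronic peaks and 54.7% in the 1572 coding promoter peaks of the same MS-275-only list. CpG-rich windows, with 8 or more CpG sites, were found at 33 peaks (3.27%, 2.34 to 4.55), against 1.35% of tiles. The share was 2.19% in peaks beyond 50 kb, 6.38% in intronic peaks and 41.1% in promoter peaks. Because the rule leaves out the 5 kb upstream of every TSS, the set and the promoter peaks differ in position by construction. The median share of repeat-masked bases was 11.4%, against 31.8% in tiles. It was also 11.4% in the peaks beyond 50 kb, 10.9% in intronic peaks and 11.7% in intergenic peaks lost with MS-275. A low share was therefore not particular to the set. For comparison, 42 intergenic peaks within 50 kb were gained with both inhibitors and had a median fold enrichment of 3.87. A further 247 were gained over vehicle and above CXD101, with a median of 2.84. These groups were sorted by calls that share the MS-275 or vehicle pool, so the medians are a description and were not tested.

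The 16 motifs were searched on both strands. Those of up to 8 letters, where N is any base, were TGANTCA for AP-1, GAGGAAG for PU.1, TTGCNNAA for C/EBP, TGTGGTT for RUNX, CACGTG for the E-box, AGATAA for factors of the GATA family, GGGCGG for the GC box, TGACGNCA for CRE and CAGGTG for the E2-box. The longer ones were short blocks around free bases. IRF was GAAA repeated after 2 free bases, MEF2 was CTA and TAG around 4, NRF1 was GCGC repeated after 2, NF-kB was GGG and TTTCC around 2, ARE was TGAC and GCA around 3, REST was AGCACC and GGACAG around 2, and CTCF was CC, C, AG and GGC around 1, 1 and 2. A match says only that these letters occur. PU.1 matches were found in 115 of the 1010 windows (11.4%, 9.57 to 13.5), against 6.23% of tiles, a difference of 5.16 percentage points (95% Newcombe interval 3.34 to 7.26). E2-boxes were found in 16.4%, against 12.7% of tiles (difference 3.72 points, 1.56 to 6.13), and GC boxes in 4.16%, against 1.89% (2.27 points, 1.20 to 3.69). GATA matches were fewer than in tiles, 8.71% against 12.6% (−3.91 points, −5.50 to −2.01), as were MEF2 matches, 2.08% against 3.27% (−1.19 points, −1.91 to −0.11). The other 11 motifs differed from tiles by an interval that includes 0. No window held an NRF1 or REST match, which allows a share of up to 0.297%, and 471 windows held none of the 16.

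Windows with a match in the peaks of highest −log10 p-value are shown to place each motif in its sequence, with 41 bases on the plus strand of mm10 and the match in capitals. The PU.1 matches were in the following peaks.
Dnaja2, chr8:85593760-85593800: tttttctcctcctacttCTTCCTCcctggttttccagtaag
Phgdh, chr3:98357049-98357089: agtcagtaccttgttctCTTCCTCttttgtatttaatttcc
Fbxo7, chr10:86053199-86053239: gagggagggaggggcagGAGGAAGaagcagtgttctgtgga
The GC box matches were in the following peaks.
Pard6b, chr2:168117493-168117533: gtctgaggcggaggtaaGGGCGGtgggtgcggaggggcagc
Glipr1l3, chr10:112138934-112138974: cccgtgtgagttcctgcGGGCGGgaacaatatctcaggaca
Tas2r134, chr2:51637999-51638039: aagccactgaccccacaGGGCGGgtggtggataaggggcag
The E2-box matches were in the following peaks.
Gm8332, chr12:88256321-88256361: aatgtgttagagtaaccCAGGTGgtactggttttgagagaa
Ppp1r16b, chr2:158651572-158651612: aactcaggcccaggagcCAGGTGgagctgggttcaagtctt
Pde7a, chr3:19320236-19320276: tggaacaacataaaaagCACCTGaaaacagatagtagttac
Phgdh and Fbxo7, for example, had 87.4 and 104 MS-275 tags over vehicle levels of 21.8 and 31.6, and Pard6b 63.8 over 15.0.

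Base composition moved with these motif shares. In windows of 45 to 55% G+C, PU.1 matches were in 12.4% of peaks and 8.87% of tiles (3.49 points, 0.929 to 6.60), E2-boxes in 19.3% and 17.4% (1.95 points, −1.22 to 5.57) and GC boxes in 2.70% and 3.01% (−0.303 points, −1.39 to 1.48). GATA differed from tiles there by −1.44 points (−3.27 to 1.03) and MEF2 by −1.25 (−2.01 to 0.228). In this range the GC box difference had turned below 0, and of the 5 motifs only PU.1 kept an interval that excludes 0. In narrower ranges the PU.1 difference was 6.28 points (2.19 to 12.8) under 40% G+C, 2.76 (−0.361 to 7.39) at 40 to 45%, 2.86 (−0.325 to 7.12) at 45 to 50%, 3.61 (−0.163 to 8.50) at 50 to 55% and 1.77 (−2.56 to 7.82) at 55% or more. It was above 0 in each of them, with an interval that excludes 0 only under 40%. With windows of 50% or more masked bases left out, the PU.1 shares were 11.5% and 6.73%. These strata were chosen after the data had been seen.

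Motif shares were then compared with those of other peaks of the MS-275-only list and of peaks lost with MS-275. The lost peaks come from the reverse contrast and, unlike the set, were not filtered against the CXD101 lists. None of the 16 motifs differed from the intronic peaks by an interval that excludes 0. From the peaks beyond 50 kb the set differed in 2: E2-boxes were in 16.4% against 11.5% (4.97 points, 1.71 to 8.14), and CRE matches in 0.198% against 0.902%, which is 2 windows in the set. From the coding promoter peaks, which the rule leaves out by position, it differed in 6. GC boxes were in 24.9% of promoter windows, a difference of −20.7 points (−23.2 to −18.2), and NRF1 (−2.48 points) and CRE (−0.820 points) were also lower in the set. PU.1 (2.54 points, 0.186 to 5.02), AP-1 (2.54 points, 0.877 to 4.37) and RUNX (1.88 points, 0.296 to 3.62) were higher in the set than in promoters. The 130 intergenic peaks lost with MS-275 within 50 kb held AP-1 matches in 24.6% (18 to 32.7), against 6.04% of the gained set, a difference of −18.6 points (−26.7 to −11.8), while the gained set was close to the 5.90% of tiles. RUNX (5.25% against 10.8%) and ARE (2.28% against 6.15%) were also lower than in lost peaks, and the ARE sequence can overlap an AP-1 match. PU.1 was found in 11.4% of gained and 10.8% of lost windows, with a difference between −6.13 and 5.36 points. In all, 80 differences of motif shares were computed, and 16 intervals excluded 0.

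**Figure D5:**
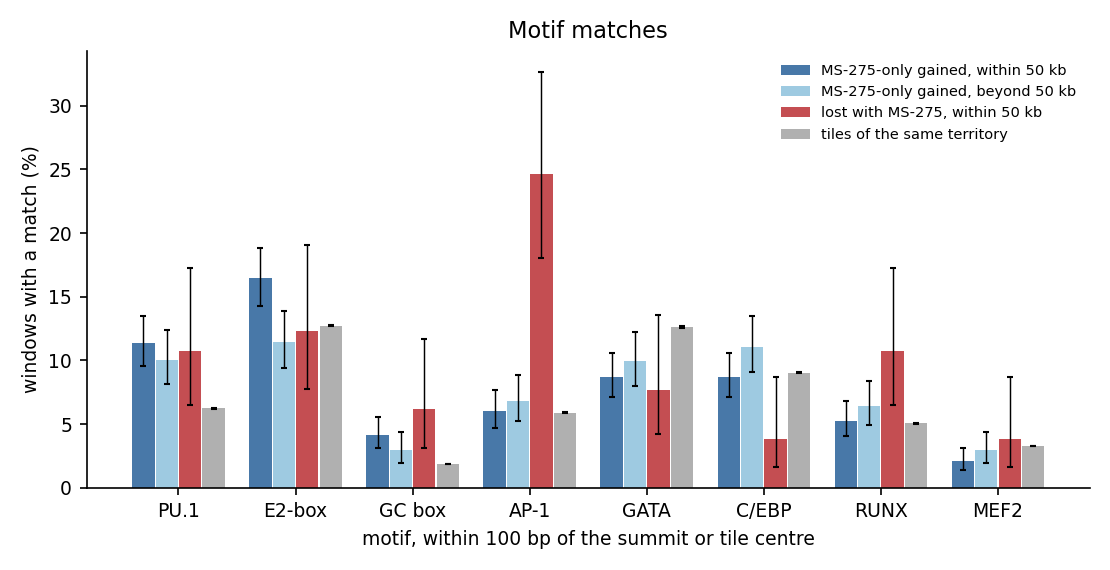
Percentage of windows, 100 bases on either side of the summit, with a match to 8 of the 16 motifs, for the 1010 peaks, the 776 peaks beyond 50 kb, the 130 intergenic peaks lost with MS-275 and the tiles. Bars have 95% Wilson intervals. PU.1 is higher in the gained peaks than in tiles, and AP-1 stands out in the lost peaks at 24.6%.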

How the data were processed

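ATAC-seq was carried out on M-MDSCs from the tumors of mice treated with vehicle, MS-275 or CXD101, with 2 libraries per group and 6 libraries in all. Per the labels and the methods, the authors aligned reads with Bowtie2 to mm10, pooled the libraries of each group and called peaks of 1 group over another with MACS2 (version 2.2.7.1 in the submitters' processing notes). The deposited fold enrichment is a linear ratio of the treated to the control pileup at the summit, with a pseudocount of 1. The deposited −log10 p-values and −log10 q-values come from a Poisson model, with peaks kept up to a q-value of 0.05. The paper states a stricter p-value cutoff, which the lowest −log10 p-value of the set, 3.80, does not meet. It also counts more MS-275 peaks than the 8480 of the deposited list. The deposited summit score, an offset in bases from the peak start, was used for positions. Reads per library were not analysed here. Tags and vehicle levels were solved from fold enrichment and p-value for all 8480 MS-275 gained peaks, of which 21 had a second solution, and this was tested on simulated data. Depth in the MS-275 pool was 1.14 times that of the vehicle pool.

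Genes and starts were those of GENCODE M21, and sequence was that of mm10. Eligible territory was the DNA of chromosomes 1 to 19, X and Y outside genes, upstream windows and gaps, within 50 kb of a coding start. Peaks overlapping by 1 base were taken as shared. Motifs were exact matches within 100 bp of the summit. Shares have Wilson intervals, differences Newcombe intervals and densities exact Poisson intervals, all at 95%, for counting error only. Beside a share of 0 that the rule did not fix stands the limit set by 3 counts, and beside a density of 0 the upper end of its Poisson interval. The peaks named were the 20 with the highest −log10 p-value, the 10 genes with most intervals (ties by summed −log10 p-value), up to 3 genes per list by −log10 p-value (more were given where they complete a list), the peaks at the limits of the rule, and 7 genes the study discussed. A few peaks that meet these rules are not reported here. The peaks and gene lists were chosen with earlier results of these data known. The alternatives were other thresholds on q-value and fold, intervals in place of summits, other distance caps, start definitions, promoter windows and rules for shared peaks, a narrower motif window, and a pseudocount of 0. Computations used Python 3.11.15, numpy 2.4.6, pandas 2.3.3, scipy 1.17.1 and matplotlib 3.10.9.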

Additional observations from a re-analysis of the deposited data

How the results depend on the processing

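No paired analysis was possible because the deposited lists were called on pooled libraries and carry no value per library, and no library could be left out either. The set depends by construction on the distance cap, and a cap of 25 kb kept 654 of the 1010 peaks. The median fold enrichment of 3.01 became 3.16 with a pseudocount of 0, 3.15 at a q-value under 0.001 and 3.09 with a fold enrichment of at least 2. A window of 50 bp around the summit lowered the motif shares, as a shorter window must, to 5.15% for PU.1, 8.12% for the E2-box, 1.88% for the GC box, 5.25% for GATA and 0.891% for MEF2, and likewise to 2.77% for AP-1, 1.98% for RUNX and 1.19% for ARE. In that window the differences from tiles of the same length kept their direction, at 2.01 points for PU.1, 1.52 for the E2-box, 0.938 for the GC box and −1.21 for GATA. Counted as distinct intervals, 5 in place of 8 pathway lists stood above the overall density, and without chromosome Y that density was 2.71 per Mb; both settings were added after seeing the data. Within 45 to 55% G+C, a setting chosen after seeing the data, the GC box difference reversed to −0.303 points and that of GATA became −1.44. Of the shares not discussed, C/EBP, IRF, E-box and NF-kB also moved in the window of 50 bp. The other counts, densities, medians and shares stayed within 1.5 times of the count or density, or within the 95% interval of the share or median.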

Other observations

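The density of the peaks varied between chromosomes. It was 4.24 per Mb of eligible DNA on chromosome 2 (95% Poisson interval 3.52 to 5.07), 4.09 on chromosome 10 (3.18 to 5.18) and 3.97 on chromosome 15 (2.95 to 5.23), against 2.63 over all. It was 1.24 on chromosome 16 (0.691 to 2.04) and 0.828 on chromosome X (0.541 to 1.21), and 7 of the 26 peaks on X were those near Tmsb4x. Neighboring peaks are not independent, so these intervals are too narrow.

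The 33 CpG-rich windows were led by a peak 13.2 kb from the start of Faim, an inhibitor of Fas-mediated apoptosis, with 22 CpG sites in its window and a fold enrichment of 4.12. Peaks near Nedd4, Zfp217, Tmsb4x and Pmaip1 were also among them. These peaks were named after their values had been seen.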
